A study of Mus musculus with 6 samples.

Results

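Gdf15 and Fgf21 encode secreted stress hormones, and both were found by symbol among the 22127 genes of the mRNA table, so the members described here are 2 genes of 22127. Both were chosen by their ratio between the BPA and the control mRNA library. Those ratios are therefore a description, and no test was made on them. The BPA culture consisted of GC-2 spd(ts) cells held without serum for 12 h and then kept for 48 h in complete medium (10% fetal bovine serum) with 120 µM bisphenol A (BPA), a plastic monomer dissolved in dimethyl sulfoxide (DMSO). The control culture had the same 12 h without serum and 48 h in complete medium with 0.1% DMSO and 0 µM BPA. For the BPA culture no DMSO percentage is given. GC-2 spd(ts) is a single mouse line derived from spermatocytes and made immortal by SV40 large T antigen together with a p53 that works only at lower temperature, and both cultures share that background. RNA of each culture was split into an mRNA, a microRNA (miRNA) and a circular RNA (circRNA) library, with 1 library of each kind per group and 6 in all.

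GDF15 is a distant member of the TGF-β superfamily that is released by many stressed cells and acts through the receptor GFRAL and its partner RET in the hindbrain, where it lowers food intake. FGF21 is an endocrine fibroblast growth factor (FGF) best known from liver, and it needs the cofactor β-klotho (gene Klb) beside an FGF receptor. In the integrated stress response, phosphorylation of the translation factor eIF2 favours translation of the transcription factor ATF4. ATF4 and CHOP (gene Ddit3) are known to switch on both hormone genes. Gdf15 is also a p53 target, and Fgf21 a target of the fasting receptor PPARα.

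The mRNA libraries held 33071378 reads with BPA and 32312872 in control, and 16870 genes had at least 10 reads in both libraries together. A count of 0 allows up to 0.0907 CPM (reads scaled to library depth) in the BPA library and 0.0928 in the control library. Nothing here was replicated, so a ratio also contains whatever else set these cultures apart. Intervals below are exact 95% counting intervals. They cover counting error only, since no library was replicated. PCR reads without molecular identifiers are not independent molecules, so the intervals may be too narrow even for that error. In bulk RNA, a gene read in fewer cells and one with less RNA per cell cannot be told apart. Of 23 germ cell markers 7 were in the table, with 613 reads together in the BPA library and 438 in control, of which Hspa2 gave 588 and 411. The germ cell gene Ddx4 had 9 reads with BPA and 0 in control, and the meiotic gene Sycp3 had 0 and 6. The fibroblast collagen gene Col1a1 had 39365 reads with BPA and 79234 in control. The RNA that defines spermatocytes was thus at or near 0 apart from Hspa2.

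The sequences in front of the genes come first, because the 2 genes differ in the 250 bases searched. The 250 bases before each annotated start (RefSeq, build GRCm38.p6, both genes on the minus strand) are printed 5′ to 3′. In the Fgf21 sequence, which lies at chr7:45615491-45615740, capitals mark the only match to TGATGNAA, the C/EBP-ATF response element (CARE) bound by ATF4 with C/EBP partners, here read on the opposite strand. In the Gdf15 sequence, which lies before the more distal of 2 annotated starts at chr8:70632457-70632706, capitals mark the only match to the shorter core TGATG, also on the opposite strand.
Fgf21: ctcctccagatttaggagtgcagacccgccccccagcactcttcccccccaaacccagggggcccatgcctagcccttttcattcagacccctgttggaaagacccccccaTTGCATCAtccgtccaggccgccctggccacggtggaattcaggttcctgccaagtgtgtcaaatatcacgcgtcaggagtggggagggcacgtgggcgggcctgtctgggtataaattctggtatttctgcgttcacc
Gdf15: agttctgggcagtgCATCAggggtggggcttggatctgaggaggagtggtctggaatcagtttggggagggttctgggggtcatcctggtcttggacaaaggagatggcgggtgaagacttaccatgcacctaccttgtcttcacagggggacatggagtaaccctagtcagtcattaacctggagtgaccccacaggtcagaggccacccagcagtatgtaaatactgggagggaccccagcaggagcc

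The Fgf21 match began 139 bases before the start. Either strand of 3.45% of 32851 windows of this length held TGATGNAA, and 12 of 37 ATF4 target genes with a listed promoter had it (32.4%, against 3.91% of all 27025 genes). No match to TGATGNAA was found in either Gdf15 window, and sequence outside these windows was not searched. The core TGATG, which CARE contains, was common, at 34.5% of all windows. The run TGCATCA stood in both printed windows, 138 bases before the Fgf21 start and 238 bases before the Gdf15 start, and 2.68% of all windows held it. It was singled out after the sequences were seen, and longer runs without this core, up to TGGGGAGGG, were shared as well. The E-box CACGTG, a site for bHLH factors, stood 50 bases before the Fgf21 start and 83 bases before the proximal Gdf15 start, and 6.02% of windows held it. Fgf21 also had GGGCGG (GC box) at 3 places, where 32.7% of windows had at least 1, and the TATA box 28 bases before its start, as 12.4% of windows did. Neither gene had a match to TGACGTCA (CRE), TGACNNNGC (the core of the NRF2 antioxidant element), the endoplasmic reticulum stress element (ERSE), the PPAR response element or the p53 half-site in these windows. These shares were 1.55%, 10.2%, 0.113%, 0.0335% and 7.13%. Both strands were searched each time, and such a match is not a site shown to be bound.

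The Fgf21 element can be set beside those of ATF4 target genes with the highest BPA over control ratios among those with a match, each read along the strand of the element with TGATGNAA in capitals.
Fgf21: cctggacggaTGATGCAAtgggggggtc
Chac1: ctggcaggagTGATGCAAcggcagggaa
Slc7a11: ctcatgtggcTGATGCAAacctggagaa
Atf3: gcggacttggTGATGCAAgtgcgagaag
Pck2: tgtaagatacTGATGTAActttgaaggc
Nupr1: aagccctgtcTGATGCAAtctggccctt
The Fgf21, Chac1, Slc7a11, Atf3, Pck2 and Nupr1 windows lie at chr7:45615612-45615639, chr2:119351039-119351066, chr3:50443662-50443689, chr1:191183426-191183453, chr14:55540153-55540180 and chr7:126625563-126625590. Fgf21 and these genes share the core, and the flanks differ. Slc7a11 has a second match that is not shown. The other ATF4 target genes with a match, also not shown, had ratios from 1.06 down to 0.39. For Slc6a9 and Trib3, at 2.70 and 2.69 the highest of the ATF4 targets, no match was found or no window was listed. Whether the element goes with a high ratio was not tested.

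At the other end of the transcripts the 2 genes were alike. Both have short 3′ untranslated regions, of 150 bases in Gdf15 and 134 bases in Fgf21, rich in the pentamer AUUUA (written ATTTA here). AUUUA is the unit of AU-rich elements, which RNA-binding proteins use to set the decay of many short-lived messengers. Gdf15 had 5 pentamers and Fgf21 4 in the last 134 bases. Among 19308 genes with an untranslated region at least that long, 0.124% had at least 5 in the same stretch, 0.316% had at least 4 and 27.7% had at least 1. The bases A and T made up 60.7% of the Gdf15 region and 72.4% of the Fgf21 region, and letters of that kind make the pentamer more frequent. The 30 bases of each with the most pentamers are shown with the pentamers in capitals, from chr8:70629482-70629511 and chr7:45613951-45613980, minus strand.
Gdf15: cttcaaggatgctATTTAtatttgtATTTA
Fgf21: cttATTTAttacgggtATTTAtcttATTTA

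Gdf15 (ENSMUSG00000038508, chromosome 8, 70629393 to 70632456) had 131 reads in the BPA library and 15 in control. The intervals of these counts ran from 109.5 to 155.4 reads with BPA and from 8.40 to 24.7 in control, so they did not overlap. On the deposited scale the normalised counts were 126.0 with BPA and 15.6 in control, an 8.08-fold difference of the values. With a pseudocount of 1 the log2 ratio was 2.94. The interval of the ratio, taken from reads without the pseudocount, ran from 2.24 to 3.89, or 4.73-fold to 14.9-fold.

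Fgf21 (ENSMUSG00000030827, chromosome 7, 45613886 to 45615490) had 38 reads in the BPA library and 5 in control. The intervals ran from 26.9 to 52.2 reads with BPA and from 1.62 to 11.7 in control. They did not overlap either, although the control value rests on a handful of reads. Both genes were chosen by this ratio, so the lack of overlap for either adds nothing to it. Of 1494 other genes with 29 to 64 reads in both libraries together, near the Fgf21 total, 14.3% were at least 2-fold higher with BPA. Near the Gdf15 total, at 98 to 219 reads, the share was 9.08% of 1178 genes. The normalised counts were 36.6 with BPA and 5.20 in control, 7.03-fold. With the pseudocount the log2 ratio was 2.60. Its interval, taken without the pseudocount, ran from 1.47 to 4.52, or 2.76-fold to 22.9-fold.

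**Figure D1:**
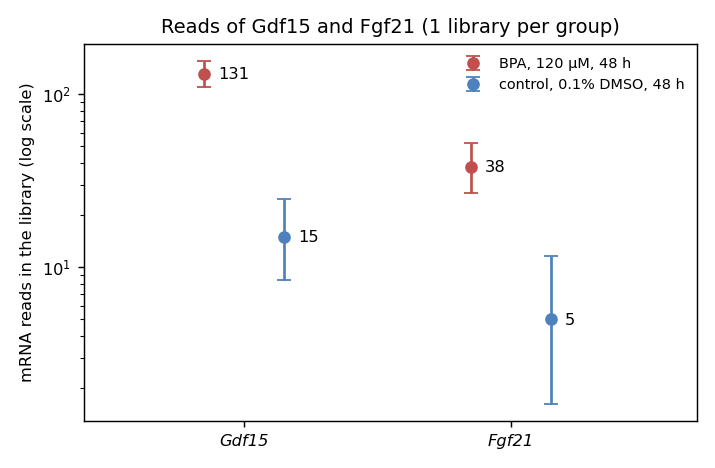
Reads of Gdf15 and Fgf21 (vertical axis, log scale) in the BPA library and the control library, 1 library each, with bars for the exact 95% Poisson interval of each count. Gdf15 had 131 and 15 reads and Fgf21 38 and 5. The bars of the libraries do not overlap for either gene, and both genes were chosen by this difference.

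The authors' deposited table gave the same log2 ratios, with p-values of 0.0525 for Gdf15 and 0.141 for Fgf21 and an adjusted value of 0.961 for both. It gave 147 of the 22127 genes a p-value under 0.05 and 0 genes an adjusted value under 0.05, from a test of 1 library against 1 that the sources used here do not name.

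Both genes stayed at low levels. Per length, Gdf15 was at 2.14 RPKM (reads per kilobase of exon, scaled to library depth) with BPA, from 1.79 to 2.54, and at 0.251 in control, from 0.140 to 0.413. Fgf21 was at 1.21 RPKM with BPA, from 0.855 to 1.66, and at 0.163 in control, from 0.0528 to 0.380. In the BPA library 52.7% of 22036 genes with a known length had a lower RPKM than Gdf15, and 46.8% a lower one than Fgf21. In control these shares were 30.9% and 26.6%. Thus Gdf15 stood near the middle of the listed genes with BPA and in the lower part in control. Fgf21 was at 0.565 of the Gdf15 level per kilobase with BPA (0.383 to 0.816) and at 0.649 in control (0.185 to 1.88). Per kilobase, Gdf15 was thus the higher of the pair with BPA, and the control reads were too few to order them.

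Of all 16870 genes compared, 6.88% were at least 2-fold higher in the BPA library, 4.61% at least 2-fold lower, and 28.2% and 26.5% had intervals wholly above and below equality. Both hormones are among the genes at least 2-fold higher, at rank 223 for Gdf15 and 245 for Fgf21 by log2 ratio, and since they were picked for that ratio nothing more is read from it. Most genes above them had 0 reads in control, where the ratio depends on the pseudocount. Among genes with at least 1 control read, 35 had a higher ratio than Gdf15 and 57 a higher one than Fgf21.

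**Figure D2:**
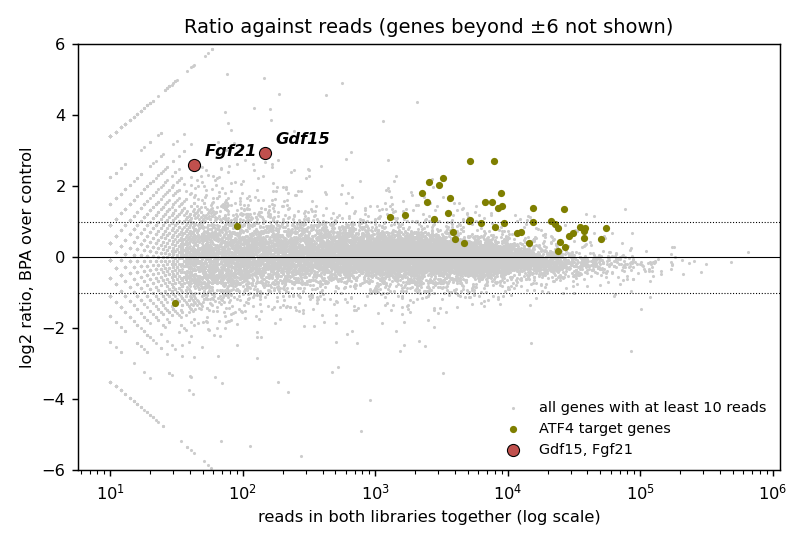
Log2 ratio of BPA over control (vertical axis, dotted lines at 2-fold) against the reads of both libraries together (horizontal axis, log scale) for genes with at least 10 reads, 1 point per gene. Gdf15 at 2.94 and Fgf21 at 2.60 lie at the low-read side, where the spread of all genes is wide, and the ATF4 target genes mostly lie above 0 at higher reads.

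Genes next to the hormones did not have such ratios. On either side of Gdf15, Pgpep1 had 2045 reads with BPA and 1745 in control, a log2 ratio of 0.12, and Ssbp4 had 1744 and 1318, a ratio of 0.29. Lsm4, 40.8 kb away, was at 0.11. Near Fgf21, the branched-chain aminotransferase gene Bcat2 had 675 and 659 reads, a ratio of -0.08, and Hsd17b14 had 4 and 6 reads. Lrrc25, Fut1 and Izumo1, the nearest other neighbours, had no row in the table. Neither hormone gene overlaps an exon of another annotated gene on either strand.

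Over the 2 libraries, the genes with at least 100 reads whose log2 ratio was closest to that of Gdf15 were Angptl6, Cox6a2, Acot2, Adm2 and Ppp1r3f. Predicted genes, clones, Rik names, mitochondrial and small RNA genes, pseudogenes and every symbol beginning with Rn had been left out by name. Angptl6, an angiopoietin-like secreted protein linked to energy use, had 583 reads with BPA and 69 in control, a ratio of 2.95. Adm2, a secreted peptide of the calcitonin family, had 92 and 12 reads and 2.73. Acot2, a mitochondrial acyl-CoA thioesterase, had 1107 and 152 reads and 2.75. Cox6a2, a subunit of cytochrome c oxidase, was at 2.75, and Ppp1r3f, a glycogen-targeting subunit of protein phosphatase 1, at 2.73. Closest to Fgf21, among genes with at least 30 reads and with the same names left out, were Ppef1, P2rx3, Lrrc8d, Atp6v1g2 and Fibin. Their ratios were 2.62, 2.62, 2.57, 2.63 and 2.56. Their counts were larger than that of Fgf21, for example 339 reads with BPA and 52 in control for Lrrc8d, a subunit of volume-regulated anion channels. Exons of Angptl6, Cox6a2, Ppp1r3f, P2rx3, Lrrc8d and Atp6v1g2 overlap other genes, so their reads are less certain, while Acot2, Adm2, Ppef1 and Fibin overlap none. Reads are likewise less certain for some genes named below. Among them are Bmp4, Fgf10, Cebpb and Slc6a9, whose exons overlap genes on the opposite strand. Likeness over 2 libraries means only a like ratio.

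Of 32 other TGF-β superfamily ligands, 17 had at least 10 reads. A ratio below 0 was found for 13 of these 17, against 48.1% of all genes, and an interval wholly below equality for 10, against 26.5%. At least 2-fold lower were 8 (4.61% of all genes), at least 2-fold higher 2 (6.88%) and 7 lay in between, with a median of -0.82 beside 0.02 over all 16870 genes. Bmp4, a bone morphogenetic protein, had 375 reads with BPA and 1982 in control (-2.51, interval -2.68 to -2.35), and Bmp2 had 23 and 105 (-2.25). The activin subunit Inhba, with 1152 and 1635 reads, was at -0.62, and Tgfb2, with 945 and 1547, at -0.82. The 2 higher relatives were Amh, the anti-Müllerian hormone, with 33 and 10 reads (1.52, 0.56 to 2.80), and Gdf1. Gdf1 had 23 reads with BPA and 0 in control, at least 7.10-fold higher if 3 counts stand for the 0. Its exons overlap Cers1, with which it shares a transcript. Tgfb1 had 383 reads with BPA and 259 in control (0.45).

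Of 21 other FGF ligands, 8 were in the table and 6 had at least 10 reads. None of the 6 was at least 2-fold higher, against 6.88% of all genes, 1 was lower, against 4.61%, and their median was -0.05. Fgf7, a growth factor for epithelia, had 826 reads with BPA and 762 in control (0.00), Fgf2 had 248 and 238 (-0.05) and Fgf13 109 and 104 (-0.04). Fgf10 had 3 reads with BPA and 37 in control (-3.34, interval -6.08 to -2.08). Per length Fgf7, at 7.69 RPKM with BPA and 7.26 in control, stood above Fgf21 in both libraries, and Fgf2, at 1.11 and 1.09, was near Fgf21 with BPA. Fgf15 and Fgf23, the other endocrine FGFs, had no row in the table.

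The genes that would let these cells respond to the hormones were unevenly covered. Gfral, the GDF15 receptor, had no row. Its partner Ret had 20 reads with BPA and 11 in control, 0.0894 and 0.0503 RPKM. Klb, the β-klotho that FGF21 requires, had 5 and 6 reads, 0.0332 and 0.0408 RPKM, and the related Kl had 9 and 3. By contrast Fgfr1 had 3981 and 4208 reads (-0.19, interval -0.25 to -0.13), and at 12.2 RPKM with BPA and 13.2 in control it was the receptor of the group with the highest level per length. Fgfr2 had 1535 and 2305 reads (-0.70), with exons that overlap Ctbp2, and Fgfr3 had 227 and 142 (0.56). The adaptor Frs2, which links FGF receptors to RAS, was at -0.29 and its relative Frs3, which overlaps 2 noncoding genes, at 0.96. Of the 9 in the table Kl alone was past 2-fold (11.1%, against 11.5% of all genes in either direction), and its interval of -0.53 to 3.995 includes equality.

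**Figure D3:**
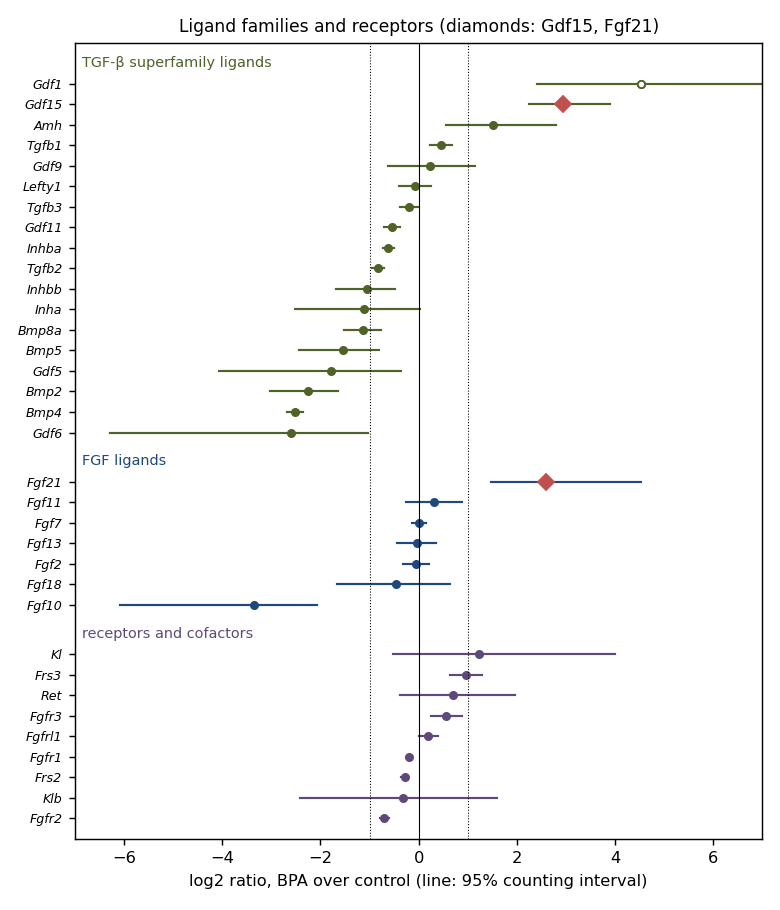
Log2 ratio of BPA over control (horizontal axis, dotted lines at 2-fold) with 95% counting intervals for ligands of the TGF-β superfamily, FGF ligands and receptors with at least 10 reads, 1 library per group. Diamonds mark Gdf15 and Fgf21 at 2.94 and 2.60, most TGF-β relatives lie left of 0, and the open circle is Gdf1, with 0 control reads.

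**Figure D4:**
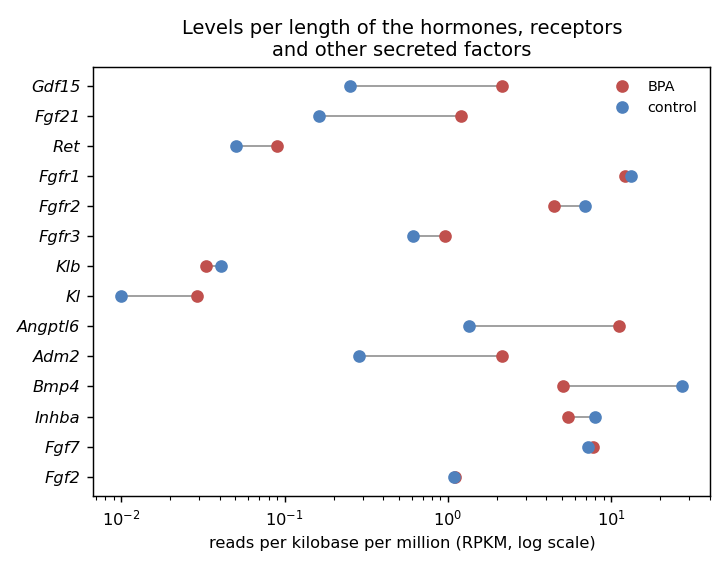
Level per length in RPKM (horizontal axis, log scale) with BPA and in control, 1 library each, for the hormones, receptors and other secreted factors. Gdf15 and Fgf21 lie below Fgfr1 and above Klb and Ret in both libraries.

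In other readouts of the same cultures, no circRNA named Gdf15 or Fgf21 as its host gene among 9158. The receptor Fgfr2 was host to 4 circRNAs with 14 back-splice events with BPA and 31 in control, of 17586 and 12909 in all, a log2 ratio of shares of -1.59 (interval -2.62 to -0.64). That value has the same sign as the Fgfr2 mRNA ratio, but 1 of the 4 circRNAs held 9 and 24 of the events. Fgfr1 was host to 1, with 3 and 2 events, a log2 ratio of shares of 0.14 (interval -2.99 to 3.72). Its sign is opposite to that of the Fgfr1 mRNA ratio, and the events are too few to set it. The adaptor Frs2, whose mRNA ratio was below 0, was host to 3, with 5 and 2 events.

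The miRNA libraries were searched for seeds (bases 2 to 8 of the miRNA) that pair with these short regions. Of 229 miRBase-named miRNAs with at least 100 reads, 196 had a listed RefSeq sequence, and 3 of them matched Fgf21 with a full seed followed by A. They share 1 seed, shown in capitals.
miR-99a-5p: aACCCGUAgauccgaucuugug
miR-99b-5p: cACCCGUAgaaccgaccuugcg
miR-100-5p: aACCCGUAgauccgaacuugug
The match starts at base 49 of the Fgf21 region, directly before an AUUUA pentamer, and is marked in capitals in the following 24 bases.
Fgf21: tttccacttatttatTACGGGTat

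miR-99a-5p made up 1.44% of miRNA reads with BPA and 0.573% in control, miR-99b-5p 1.02% and 0.630%, and miR-100-5p 1.15% and 0.397%. All 3 had a higher share with BPA, but so did 95.2% of the 229, while miR-148a-3p filled 35.2% of the BPA library and 70.5% of the control library. Their log2 ratios of shares, 1.33, 0.70 and 1.53, were below the median of 1.76 of the 229. For Gdf15 the match found was a seed of miR-362-5p, with 180 reads with BPA and 56 in control. Seed letters are not evidence of binding, and these matches were looked for after the mRNA values were known.

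The transcription factors known to act on either gene, largely from work in liver and other tissues, were nearly all covered, with 32 of 34 at 10 reads or more. Of these 5 were at least 2-fold higher (15.6%, against 6.88% of all genes) and 1 at least 2-fold lower (against 4.61%). The other 26 lay in between, and the median was 0.17. The higher ones were Atf3 (1789 reads with BPA and 471 in control, 1.81), Ddit3 (5140 and 1639, 1.54), Klf4 (3547 and 1395, 1.23), Cebpb (1184 and 483, 1.18) and Ppara. Ddit3 shares exons with a second entry of its symbol. Atf3, Ddit3, Cebpb, Atf5 and Cebpg are counted again in the list of ATF4 target genes below. Atf4, with 28597 and 16430 reads, was at 0.69, Atf5 at 0.85 and Cebpg at 0.50. The endoplasmic reticulum stress factors Xbp1 and Atf6 were at 0.69 and 0.55, and Nfe2l2 (NRF2) was at 0.77. Egr1, a Gdf15 activator, was at -0.92. Trp53 was abundant, with 129170 reads with BPA and 159652 in control (-0.42). The line was made with a temperature-sensitive p53, whose reads cannot be told apart here from those of the cells' own gene. Ppara had 13 and 5 reads, with an interval of -0.31 to 3.11 that includes equality, and its coactivator Ppargc1a had 17 and 16.

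Target genes of the regulators were also read as lists chosen for this comparison with earlier results of these data known, so their counts are descriptions. Some genes are on more than 1 list, so the counts of the lists are not separate results. Of 47 ATF4 target genes other than the hormones, 46 were above 0 (against 51.9% of all genes). Of the 47, 22 were at least 2-fold higher (46.8%, against 6.88% of all genes) and 1 at least 2-fold lower (against 4.61%). Their median was 0.96. The glycine transporter Slc6a9, whose exons overlap other genes, had 4517 reads with BPA and 644 in control (2.70). The pseudokinase Trib3 had 6890 and 985 (2.69), and Chac1, which breaks down glutathione, 2709 and 535 (2.23). The abundant Nars and Phgdh were at 0.83 and 0.51. The list of 18 sensors and regulators of the stress response also held Bok and 6330403K07Rik, whose place in it is uncertain. Of the 18, 2 were at least 2-fold higher (11.1%, against 6.88% of all genes). These were Ppp1r15a, which restores translation by recruiting a phosphatase to eIF2, at 1.39, and the oxidase gene Ero1l at 1.17. Ppp1r15a is also counted among the ATF4 target genes. The chaperone Hspa5 was at 0.69. The 4 eIF2 kinases, singled out after their values were seen, were at -0.11 for Eif2ak1, -0.07 for Eif2ak2, 0.18 for Eif2ak3 and -0.45 for Eif2ak4.

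Of 20 mitochondrial stress genes 2 were at least 2-fold higher (10.0%, against 6.88% of all genes), Pck2 at 1.56 and Pycr1 at 1.53, while the chaperones Hspa9 and Hspd1 were at 0.26 and -0.28, and the median was 0.21. Pck2 is also on the ATF4 list, and so are others of the 20. Of 26 p53 targets other than Gdf15, 6 passed 2-fold upward (23.1%, against 6.88% of all genes) and 0 downward (against 4.61%), around a median of 0.31. Gadd45a, a growth-arrest gene, had 2221 reads with BPA and 447 in control (2.20), Trp53inp1 632 and 133 (2.13) and Sesn2, also an ATF4 target, 2850 and 826 (1.67), whereas Plk2 was at -0.60 and Ccng1 at 0.27. Of 17 PPARα targets with enough reads 3 were at least 2-fold higher (17.6%, against 6.88% of all genes) and 2 lower (against 4.61%), with a median of -0.16. Acot2 was at 2.75, Angptl4, a lipase inhibitor, at -1.002 and Pdk4, a brake on pyruvate oxidation, at -0.72, and the oxidation enzyme Hadha was at -0.17. Of 18 genes that follow FGF receptor and ERK signalling, Etv5 alone passed 2-fold, at 1.05 (against 11.5% of all genes in either direction), and the median was -0.05. Egr1 was at -0.92, Phlda1 at -0.79 and Dusp5 at -0.75.

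Other secreted factors linked to stress did not share one direction. Of 23 with enough reads, 5 were at least 2-fold higher (21.7%, against 6.88% of all genes) and 4 at least 2-fold lower (against 4.61%). The other 14 lay in between, and the median was 0.30. Besides Angptl6 and Adm2, the higher ones were Ccl20, Il6 and Stc2, named after their values were seen. Stc2, a glycoprotein hormone and ATF4 target, had 910 reads with BPA and 384 in control (1.13). The chemokine Ccl20 had 16 and 0 reads, at least 4.94-fold higher on that floor, and Il6 had 12 and 3, with an interval that includes equality. Fst, which binds activins, was at -1.37 and the receptor Tnfrsf12a at -0.18. Adm, a relative of Adm2, was at -1.13.

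**Figure D5:**
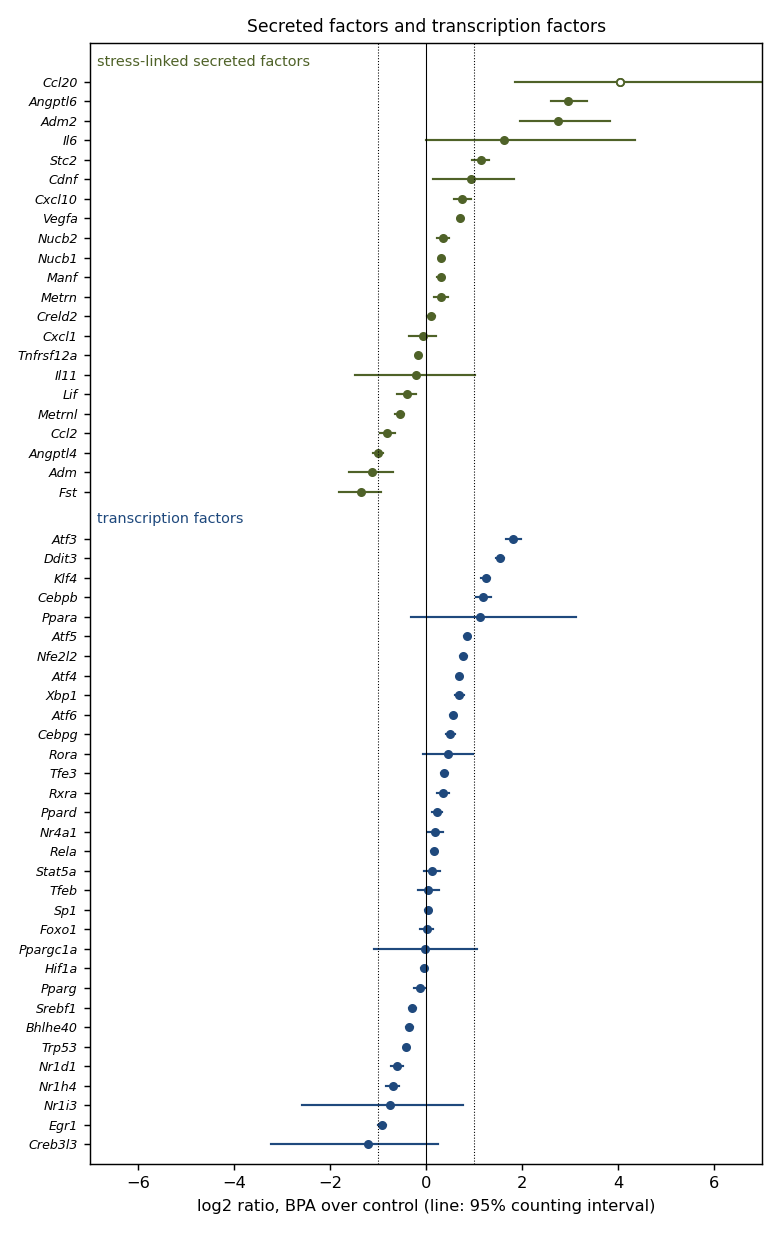
Log2 ratio of BPA over control (horizontal axis, dotted lines at 2-fold) with 95% counting intervals for stress-linked secreted factors and for transcription factors that act on the hormone genes, with at least 10 reads, 1 library per group, some list members not being drawn. Angptl6 at 2.95 and Adm2 at 2.73 lie at the top beside Ccl20 (open circle, 0 control reads), and Atf3 at 1.81 is the highest transcription factor.

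Of 7 genes for proteins that mature or degrade the hormones with enough reads, 6 lay within 2-fold, as did all but 11.5% of all genes. Furin, a protease of the kind that cleaves TGF-β family precursors, had 2090 reads with BPA and 1681 in control (0.20), and its relatives Pcsk6 and Pcsk7 were at 0.18 and -0.28. The membrane metalloproteinase Mmp14 had 3798 and 6330 (-0.85). Fap, the protease that inactivates FGF21, had 4 and 0 reads.

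Markers of hepatocytes and adipocytes, which make FGF21, were at or near 0. Of 9 hepatocyte markers 8 had no row and Apob had 5 reads in each library, and of 6 adipocyte markers 5 had no row and Fabp4 had 11 reads with BPA and 6 in control. Of 12 macrophage and leukocyte markers 10 had a row, with summed normalised counts of 504.1 with BPA and 344.1 in control. Cd68 gave 227.0 and 152.8 of these and Cd14 222.2 and 167.3, while Ptprc, which all leukocytes carry, had 0 and 3 reads. Peritubular and fibroblast markers summed to 67610.1 with BPA and 145917.3 in control, over 14 of 16 genes. Col1a1 gave 37871.7 and 82358.2 of these and Col1a2 20318.8 and 43396.2. Sertoli cell markers, 10 of 13 in the table, summed to 12476.1 and 12552.2. Leydig cell markers, 3 of 8, summed to 2244.5 and 1871.0, of which Nr5a1 gave 2157.0 and 1799.3, while Cyp11a1 and Cyp17a1 had no row. Epithelial markers, 5 of 9, summed to 933.2 and 1107.0, of which Krt14 gave 813.9 and 826.3. Sums led by so few genes do not show which cell types were present. The part of these differences in the hormone ratios was not tested.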

How the data were processed

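Groups came from the samples' titles. Per the submitters' processing notes, STAR and StringTie were named for the mRNA libraries, STAR for circRNA and Bowtie 1.1.0 for miRNA, with builds GRCm38 and mm10. The mRNA kit was strand-specific per the labels' protocols. For counter and annotation the sources used here name nothing. The authors' mRNA and circRNA values were deposited as log2 of a count plus 1. All 22127 mRNA values of each library were whole multiples of 1 step (0.962066 with BPA, 1.03943 in control) within a tolerance of 0.001, which gave whole reads. A step of 2 in the circRNA values was taken as 1 back-splice event. The deposited miRNA values were read counts. The p-values and adjusted p-values are the authors' deposited ones. 8 further per-sample columns were not used.

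Ratios used the deposited scaling with a pseudocount of 1 and genes with at least 10 reads. Intervals were exact binomial or Poisson (SciPy 1.17.1), from reads without a pseudocount. A stated limit of 0 reads is 3 counts. RPKM used the recovered reads and merged exons of GENCODE M21 (GRCm38), and edgeR 4.0.16 in R 4.3.3 gave alternative scalings. The interval code was tested on simulated data. The members and lists were chosen with earlier results of these data known. All measured receptors, ligands, maturation genes and transcription factors could be named, with the 2 most abundant and 3 most different members of other lists (at 100 reads or more). The 5 genes nearest in ratio could be named too, after the symbols described above were left out. Some members of the lists are counted but not reported here by name.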

Additional observations from a re-analysis of the deposited data

How the results depend on the processing

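The log2 ratio of Gdf15 ran from 2.67 to 3.01 and that of Fgf21 from 2.03 to 2.70 over pseudocounts of 0.5 and 5, no filter and scaling by library totals, TMM or upper quartile. The lowest values came with a pseudocount of 5. Fgf21, with under 50 reads, gave no value with the filter at 50. With that filter 440 genes were at least 2-fold higher and 277 lower, and with no filter 2978 and 2381, against 1160 and 778. All 15 list medians stayed within their intervals, no ratio past 2-fold changed sign, 79 of 1602 single-gene values left their counting interval, and scaling by totals moved the median of all genes to 0.09. With coding length, Fgf21 was at 0.419 of the Gdf15 level with BPA and 0.481 in control. Fgf21 had 5 control reads, and its interval is wide. No paired analysis was possible because each group had 1 library, and no library could be left out for the same reason.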
